A study of Homo sapiens with 6 samples.

Results

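The genes described here are 10 genes of the Wnt receptor and beta-catenin pathway: FZD1, FZD2, FZD4, FZD5, FZD7, FZD8, LRP6, CTNNB1, APC and AXIN1. These genes were chosen with earlier results of these data known. Whether that choice raised their values beside those of all peaks and regions was not tested. Their peaks of N6-methyladenosine (m6A) signal were taken as those on the strand of the gene whose centre lay in a fixed hg19 window around it. Overlapping peaks from different lists, by 1 bp or more and on one strand, were joined into regions, and the 10 genes held 25 of the 25737 regions of the series. The data came from methylated RNA immunoprecipitation sequencing (MeRIP-seq) of wild-type HEK293T cells, a line derived from human embryonic kidney and made to express the large T antigen of SV40. In this assay RNA fragments with m6A are pulled down with an antibody (IP) and the RNA before the pull-down (input) is sequenced for comparison. The 6 samples were the IP and the input of 3 repeats of the same experiment, called MeRIP 1, MeRIP 2 and MeRIP 3, with no treatment, mutant or second cell line. Each repeat gave 1 deposited peak list, so values are given for 3 lists, and nothing in the labels tells whether separate cultures were used, so spreads between lists may be technical.

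Wnt ligands bind Frizzled receptors, which cross the membrane several times, together with the single-pass co-receptor LRP6. Without a ligand, a destruction complex built on the scaffolds AXIN1 and APC marks beta-catenin, the product of CTNNB1, for degradation. With a ligand the complex is held back, beta-catenin accumulates, and it enters the nucleus to act with transcription factors of the TCF and LEF family. m6A is added to adenosines in mRNA during transcription, mostly by METTL3 with METTL14, is often found near stop codons and in long internal exons, and is read by proteins that act on splicing, decay and translation of the RNA.

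Peaks were listed in 9 of the 10 genes, and 8 of the 10 had at least 1 region in all 3 lists. These were all 6 Frizzled genes, LRP6 and AXIN1. APC had 1 region, in MeRIP 2 and MeRIP 3, and CTNNB1 had no peak in any list. The genes held 21 peaks in MeRIP 1, 22 in MeRIP 2 and 24 in MeRIP 3, of 21286, 19851 and 20010 peaks in the whole lists. Of the 25 regions, 19 (76%) were in all 3 lists, beside 59.3% of all regions, 4 were in 2 lists and 2 (8%) in 1 list, beside 22.8% of all regions. No peak on the opposite strand overlapped any of the 10 windows. In the GRCh38.p14 gene table of RefSeq, PRSS23 overlaps FZD4, MIR4683 and LOC124902528 overlap FZD8, and only pseudogenes overlap LRP6 and APC. These overlaps were taken by position, without regard to strand. Whether reads of an overlapping gene could add to a peak was not tested.

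Each peak carries a score from the authors, which ran from 50 upward. Many peaks were tied at 3100, and 101, 95 and 84 peaks of MeRIP 1, 2 and 3 lay above it, up to 3230, 3233 and 3233; a score of 3100 or more is called the ceiling here. No peak of the 10 genes was above 3100. The values look like p-values turned into minus log10 and multiplied by 10, as the peak caller MACS writes them, but no header states this. Such a score depends on the amount of RNA and on peak width as well as on methylation, so it orders peaks by evidence and does not give a methylation level. The median score of the peaks in the 10 genes was 1680, 1830 and 1200 in MeRIP 1, 2 and 3, beside 420, 422 and 443 for all peaks of these lists. Every list gave a ceiling score to 9 (47.4%) of the 19 regions in all 3 lists, beside 18.9% of such regions in the whole series. Wide regions reach the ceiling more often in the series as a whole. Among regions over 1000 bp, 5 of the 7 in these genes were at the ceiling in each list, beside 36.2% of all such regions. Among regions of up to 1000 bp, 4 of 12 were, beside 10.9%. Of the 7 over 1000 bp, 6 were wider than 2000 bp, beside 1930 of the 4854 in the series. That comparison is therefore not matched for width.

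FZD4, AXIN1 and CTNNB1 are shown with their promoter sequences because the 5' ends of their windows stood in different states, with a separate peak at the 5' end of FZD4 and of AXIN1 and no peak anywhere in CTNNB1, a choice made after the peaks were seen. The sequences are from RefSeq on GRCh38.p14, which had an entry for 7 of the 10 genes, and run 5' to 3' from 250 bases before to 50 bases after the annotated start. Capitals mark the 50 bases from the start on, the part that is copied into RNA. The peaks are on hg19 and were not converted, so no peak edge is placed on these letters.
FZD4, chr11:86955346-86955645, minus strand: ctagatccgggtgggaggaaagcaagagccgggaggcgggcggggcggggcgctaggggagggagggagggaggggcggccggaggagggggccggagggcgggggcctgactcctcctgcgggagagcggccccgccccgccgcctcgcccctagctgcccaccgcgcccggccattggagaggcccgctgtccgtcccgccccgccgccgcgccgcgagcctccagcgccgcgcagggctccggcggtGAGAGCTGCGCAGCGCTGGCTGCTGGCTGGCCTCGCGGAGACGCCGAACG
AXIN1, chr16:352674-352973, minus strand: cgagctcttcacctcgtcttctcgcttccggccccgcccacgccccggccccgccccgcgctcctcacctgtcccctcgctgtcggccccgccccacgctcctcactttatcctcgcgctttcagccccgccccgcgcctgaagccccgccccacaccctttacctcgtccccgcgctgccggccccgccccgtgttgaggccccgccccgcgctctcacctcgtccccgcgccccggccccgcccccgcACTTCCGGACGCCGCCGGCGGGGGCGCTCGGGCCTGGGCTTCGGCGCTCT
CTNNB1, chr3:41199255-41199554, plus strand: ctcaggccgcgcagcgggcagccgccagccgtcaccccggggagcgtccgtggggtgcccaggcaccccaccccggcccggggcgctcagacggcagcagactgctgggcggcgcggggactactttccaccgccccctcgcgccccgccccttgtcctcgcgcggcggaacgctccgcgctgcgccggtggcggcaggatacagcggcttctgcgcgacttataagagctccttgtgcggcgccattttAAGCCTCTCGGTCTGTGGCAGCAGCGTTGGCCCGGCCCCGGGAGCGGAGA

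The core GGAC of the m6A consensus was searched in these 50 bases on the transcribed strand only, since the mark is on RNA. The 3 weaker cores were searched as well: AGAC with an A first, GAAC with an A second, and lastly AAAC. AXIN1 held GGAC, which 18.9% of the 35116 RefSeq promoters hold in the same stretch. FZD4 held AGAC (in 16.5% of promoters) and GAAC (in 12.8%), and CTNNB1 held none of the 4, while 48.7% of all promoters held at least 1. Among the other genes with an entry, FZD1, FZD5 and FZD8 held no GGAC in this stretch. The FZD1 and FZD8 peaks began in the first bases of their windows but were far wider than 50 bases, so the stretch does not describe them. In APC, whose only region lay far into its window, 1 of 2 entries held GGAC. A match is a description of the letters and not a methylated site.

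Among regions in all 3 lists, the widest were in the Frizzled receptors. Each of the 6 genes had 1 wide region in all 3 lists, and FZD4 had a second, narrow one. The Frizzled peaks covered 18700 bp in MeRIP 1, 18061 bp in MeRIP 2 and 18345 bp in MeRIP 3, which was 76.3%, 58.5% and 58.9% of the bases covered in the 10 genes. The share was higher in MeRIP 1, whose list had no APC peak; without APC the genes held 24523, 23766 and 24308 covered bp. Of the 19 regions in all 3 lists, 7 (36.8%) were wider than 1000 bp, beside 31.8% of all regions in all 3 lists, and 6 (31.6%) were wider than 2000 bp, all of them Frizzled regions, beside 12.6% of all regions in all 3 lists.

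FZD1, the receptor with the widest Frizzled region, had a peak on chromosome 7 from 90893783 to 90897725 on the plus strand in MeRIP 1. The peak was 3943, 3906 and 3886 bp wide in MeRIP 1, 2 and 3 and covered 89.9 ± 0.664% of the gene window (SD, n = 3 lists). It began 3 bp from the 5' end of the window in every list and stopped 407, 444 and 464 bp before its 3' end. Of all regions in all 3 lists, 2.04% were as wide or wider.

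FZD8 and FZD7 were covered in the same manner, from the first base of the window. In FZD8 the peaks on chromosome 10, minus strand, had their upstream edge at 35930362 and were 3003, 3071 and 2978 bp wide. They covered 94.5 ± 1.51% of the window, the highest share of the 10 genes. FZD8 also had the shortest window, 3.19 kb, beside 151 kb for LRP6. Windows were taken whole, with no exon annotation, so shares of the window do not compare the extent of m6A between genes. The FZD7 peaks began at 202899310 on chromosome 2, plus strand, and were 2907, 3484 and 3434 bp wide, which covered 85.0 ± 8.30% of the window (SD, n = 3 lists), with the shortest peak in MeRIP 1.

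FZD2 was covered from 2 bp after the 5' end of its window, but over a smaller part. Its peaks on chromosome 17, plus strand, began at 42634812 and were 2554, 2558 and 2467 bp wide, 66.1 ± 1.35% of the window. The last 1265, 1261 and 1352 bp of the window had no listed peak.

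FZD5 and FZD4 differed in that the wide peak began inside the window. In FZD5 the upstream edge was 569 bp in, at 208633718 on chromosome 2, minus strand, in all 3 lists, and the peaks were 3708, 2650 and 2848 bp wide. FZD5 coverage was 44.0 ± 8.06% of the window, and its widest peak was in MeRIP 1, the list with the shortest FZD7 peak. All 5 of these receptors, FZD1, FZD2, FZD5, FZD7 and FZD8, had a score of 3100 in every list.

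FZD4, the receptor of the ligand norrin as well as of Wnts, was the Frizzled gene with the lowest scores. Its wide peak on chromosome 11, minus strand, began 2921 bp inside the window at 86663512 and was 1987, 1794 and 2134 bp wide. The score of that peak was 1681 in MeRIP 1, 2793 in MeRIP 2 and 3100 in MeRIP 3, so it was at the ceiling in 1 list. A separate peak of 598 bp, from 86665843 to 86666440, lay at the 5' end of the window and reached 7 bp past it. Its score was 304 in MeRIP 1, 528 in MeRIP 2 and 286 in MeRIP 3. That is below the median of all peaks in MeRIP 1 and MeRIP 3 and above it in MeRIP 2. The 2 FZD4 regions did not overlap in score: the lowest of the wide peak, 1681, was above the highest of the 5' peak, 528. Together they covered 26.5 ± 1.76% of the window.

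**Figure D1:**
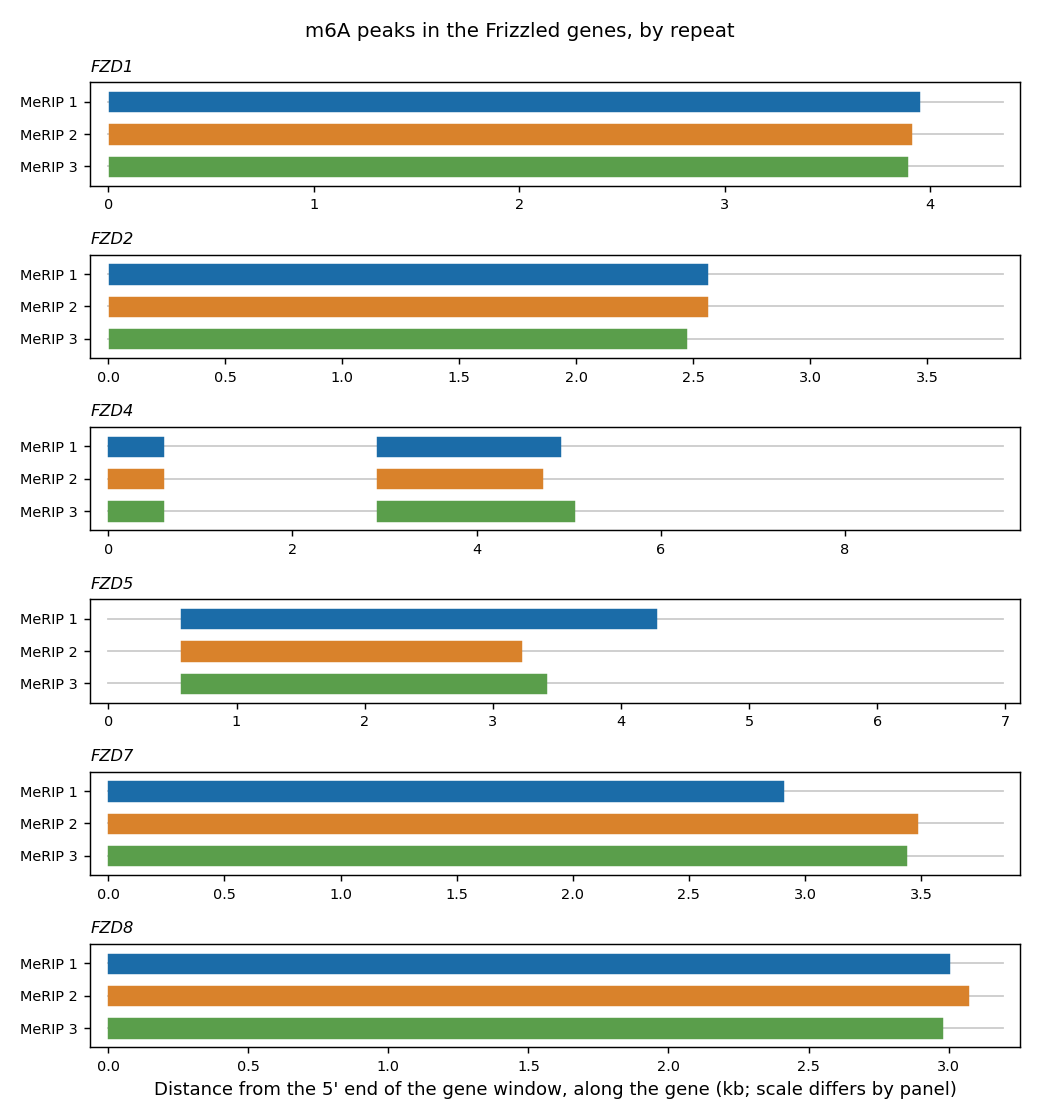
Peaks of FZD1, FZD2, FZD4, FZD5, FZD7 and FZD8 (bars) in MeRIP 1, 2 and 3, along each gene window (grey line) in kb from its 5' end. FZD1, FZD2, FZD7 and FZD8 are covered from their first bases, FZD5 from 569 bp and FZD4 by a peak of 598 bp and a wider one that starts 2921 bp in.

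LRP6, the co-receptor that docks the destruction complex once it is phosphorylated, had the most regions of the 10 genes. There were 10 regions over a window of 151 kb on chromosome 12, minus strand, with 7 peaks in MeRIP 1, 7 in MeRIP 2 and 9 in MeRIP 3, and they covered 1.88%, 1.83% and 1.98% of the window in MeRIP 1, 2 and 3. The regions ranged from 98 to 1195 bp with a median of 222 bp. Of these 10, 5 were in all 3 lists, 3 in 2 lists and 2 in MeRIP 3 alone.

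The strongest LRP6 regions were the first and second from the 5' end. The first, of 332 bp from 12419615 to 12419946, reached 135 bp past the 5' end of the window, and the second, of 394 bp, ran from 12397196 to 12397589. Both had a score of 3100 in every list, although each was narrower than the median width of 538 bp of all regions in all 3 lists. The fourth region, of 397 bp from 12333977 to 12334373, scored 1041, 1890 and 1522 in MeRIP 1, 2 and 3.

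The region nearest the 3' end of LRP6, from 12273160 to 12274354, scored 321, 550 and 569 in MeRIP 1, 2 and 3. The third region, of 198 bp from 12356137 to 12356334, was weak yet in every list, with 70.6 in MeRIP 1, 105 in MeRIP 2 and 84.7 in MeRIP 3. All 3 of these regions below the ceiling were lowest in MeRIP 1.

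The other 5 LRP6 regions were each missing from at least 1 list, and all were weak. The highest score among them was 281, in MeRIP 2, in the region from 12332744 to 12332915, which had 80.8 in MeRIP 3 and no peak in MeRIP 1. A region at 12315127 to 12315353 had 113 in MeRIP 1 and 67.0 in MeRIP 3, and one at 12277499 to 12277596 had 85.3 in MeRIP 1 and 130 in MeRIP 2. Those found in MeRIP 3 alone scored 114 and 80.1. No list holds a score under 50, and why these regions were missing was not tested.

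AXIN1, the scaffold that brings the kinases of the destruction complex to beta-catenin, had peaks at the same 7 places in every list. Its regions on chromosome 16, minus strand, lay over a window of 65.2 kb of which they covered 4.55 ± 0.0345% (SD, n = 3 lists).

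At the 5' end of AXIN1 a region of 308 bp, from 402369 to 402676, scored 317, 531 and 553 in MeRIP 1, 2 and 3. The second region, of 959 bp from 396148 to 397106, was at 3100 in every list. A stretch of 3 narrow regions followed, of 141, 97 and 138 bp. The one of 141 bp scored 520, 342 and 652 in MeRIP 1, 2 and 3, that of 97 bp scored 1098, 666 and 758, and that of 138 bp scored 1170, 1125 and 887. The narrowest, 97 bp, thus stood above the median of all peaks in each list, while 95.9% of all regions in all 3 lists were as wide or wider.

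The last 2 AXIN1 regions were strong. The sixth, of 530 bp from 347722 to 348251, was at 3100 in every list, and the seventh, which reached the 3' end of the window at 337440 in MeRIP 1 and MeRIP 3, scored 2297, 1764 and 2326. Across AXIN1 no list was always the highest: among the 5 regions below the ceiling MeRIP 1 was highest in 2 and MeRIP 3 in 3.

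APC, the tumour suppressor that binds beta-catenin and AXIN1 through repeats in its large central part, had 1 very wide and very weak region. It lay on chromosome 5 from 112173250, on the plus strand, and was 7083 bp wide in MeRIP 2 and 6845 bp in MeRIP 3, with no peak in MeRIP 1. The scores were 77.7 and 64.7, and 88.7% of the peaks of MeRIP 2 and 93.7% of those of MeRIP 3 scored as high or higher. Only 0.157% of all regions in all 3 lists were as wide or wider. The region began 130050 bp into the window of 139 kb, so the remaining length of APC had no listed peak.

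CTNNB1, which encodes the effector beta-catenin, had no listed peak on either strand over its window of 65.3 kb on chromosome 3. The nearest listed peaks on the plus strand were 655, 655 and 661 kb upstream and 928, 941 and 933 kb downstream in MeRIP 1, 2 and 3. Peak names are numbered by position along all 24 chromosomes in each list. Between the nearest listed peaks on either side of CTNNB1, on either strand, 31 numbers in MeRIP 1, 23 in MeRIP 2 and 20 in MeRIP 3 belonged to no listed peak. If the numbers count called peaks, some were called and not listed in this stretch of 1650, 1660 and 1660 kb, and whether any lay in CTNNB1 cannot be read from the lists. Read depth is unknown as well, so the lack of a peak is not a measurement of unmethylated RNA. Numbers were missing inside other genes too: 9, 5 and 6 between the first and last AXIN1 peaks, and 2, 7 and 2 within LRP6. Most numbers were unlisted in the whole series as well. The highest number was 96698, 74706 and 75015 in MeRIP 1, 2 and 3, for 21286, 19851 and 20010 listed peaks. The unlisted numbers around CTNNB1 are therefore not particular to it.

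**Figure D2:**
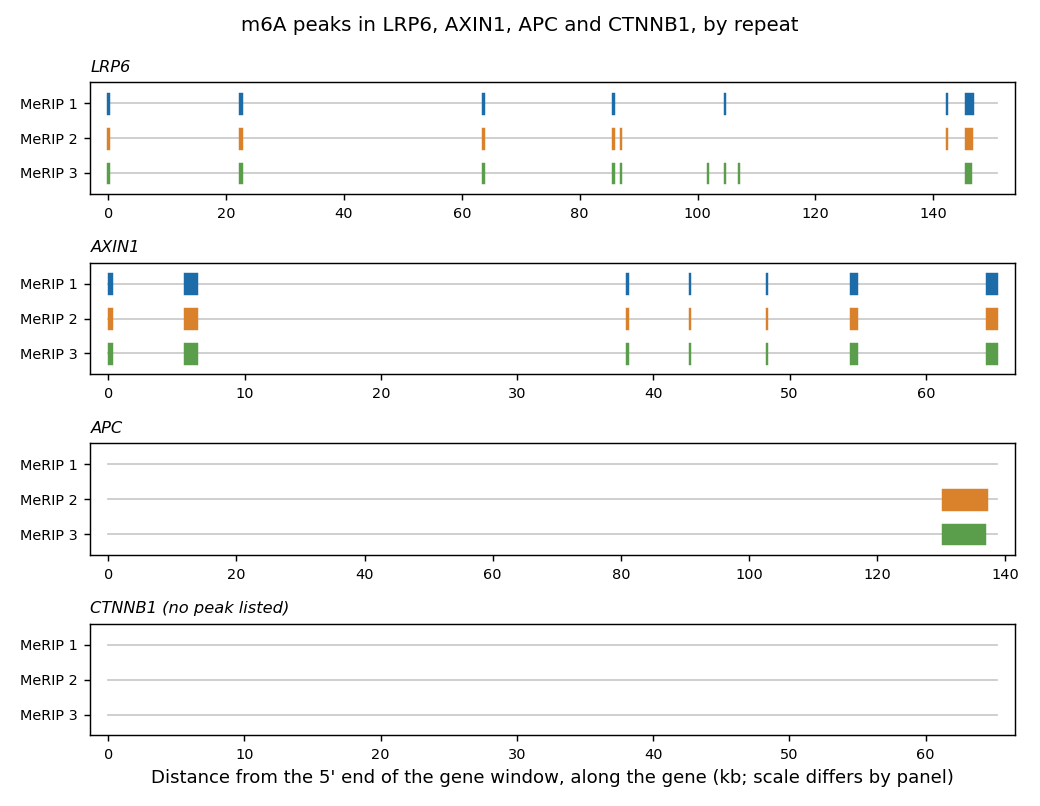
Peaks of LRP6, AXIN1, APC and CTNNB1 (bars) in MeRIP 1, 2 and 3, along each gene window (grey line) in kb from its 5' end. LRP6 has 10 regions of which 5 are in all 3 lists, AXIN1 has 7 that are all in 3 lists, APC has 1 in MeRIP 2 and MeRIP 3, and CTNNB1 has none.

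Ordered by the highest score of the gene in each list, FZD1, FZD2, FZD5, FZD7, FZD8, LRP6 and AXIN1 were tied at 3100 in all 3 lists and could not be ranked. FZD4 followed with 1681, 2793 and 3100, which touches the tied genes in MeRIP 3. By highest score APC came next with 77.7 in MeRIP 2 and 64.7 in MeRIP 3, below every FZD4 value, and CTNNB1 had no value. A gene was also given the median score of its peaks in place of the highest. The mean over the lists was then 1450 for FZD4, 1060 for AXIN1 and 328 for LRP6. FZD4 was then above LRP6 in every list, but above AXIN1 in MeRIP 2 and MeRIP 3 alone. In MeRIP 1 the AXIN1 median, 1170, was above the median of the 2 FZD4 peaks, 1681 and 304. FZD1, FZD2, FZD5, FZD7 and FZD8 stayed at 3100. No pair of genes had a highest score below the ceiling in all 3 lists, so no gene was named as most alike another.

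Scores differed by less than 2-fold between repeats in each region that was below the ceiling in all 3 lists. There were 9 such regions, 1 in FZD4, 3 in LRP6 and 5 in AXIN1. The highest score was 1.32 to 1.91 times the lowest, with a median of 1.75, and the median SD of log2 scores was 0.435. For all 11131 such regions of the series the median ratio was 1.94 and the median SD was 0.503. All 9 were within 2-fold, beside 52.4% of all such regions. MeRIP 1 was highest in 2 of the 9, MeRIP 2 in 3 and MeRIP 3 in 4. No test was made, since the 3 lists are of 1 condition and each holds all genes.

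**Figure D3:**
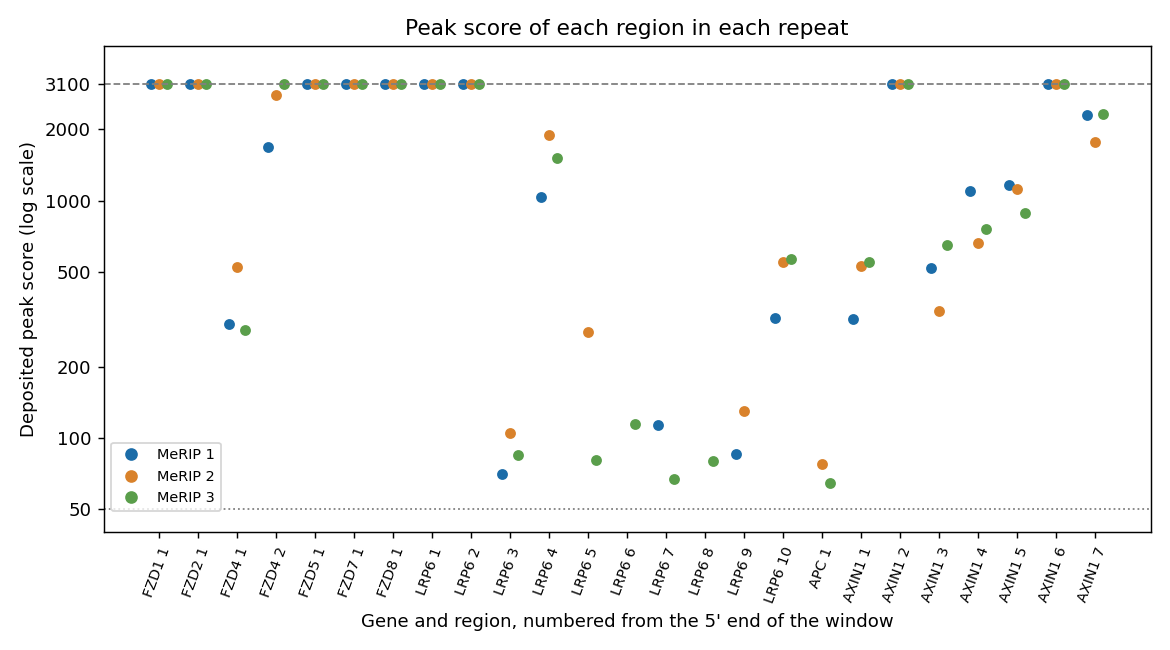
Deposited score of each of the 25 regions (log axis) in MeRIP 1, 2 and 3, by gene and position from the 5' end, with the ceiling of 3100 dashed and the lowest listed score of 50 dotted. The 9 regions at the ceiling in every list are in FZD1, FZD2, FZD5, FZD7, FZD8, LRP6 and AXIN1, and the 6 regions missing from a list lie between 64.7 and 281.

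Peak edges were either the same to the base in every list or differed at the downstream end alone. Of the 19 regions in all 3 lists, each with 1 peak per list, 11 (57.9%) had both edges the same, beside 72.7% of all regions with 1 peak in each list. The other 8 (42.1%) shared the upstream edge alone, beside 20.4%, and none shared the downstream edge alone, beside 4.70%, or neither edge, beside 2.23%. Among regions over 1000 bp all 7 shared the upstream edge alone, beside 48.4% of all such regions, and none had both edges the same, beside 41.2%. This comparison is not matched for width either, since 6 of the 7 were wider than 2000 bp. The 8 regions that shared the upstream edge alone were the wide region of each Frizzled gene and the regions nearest the 3' end in LRP6 and AXIN1. In FZD4, LRP6 and AXIN1, the genes with several regions, the region with a free downstream edge was the last one along the strand.

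The free edge moved by 39 bp in AXIN1 at the least and by 1058 bp in FZD5 at the most. It moved by 57 bp in FZD1, 91 bp in FZD2, 93 bp in FZD8, 336 bp in LRP6, 340 bp in FZD4 and 577 bp in FZD7. The median over the 8 regions was 214.5 bp, beside 149 bp for all 3074 regions of this kind. The APC peaks of MeRIP 2 and MeRIP 3 also shared their upstream edge and ended 238 bp apart. Regions with both edges the same, among them all 6 regions of AXIN1 upstream of its last one, were 97 to 959 bp wide.

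**Figure D4:**
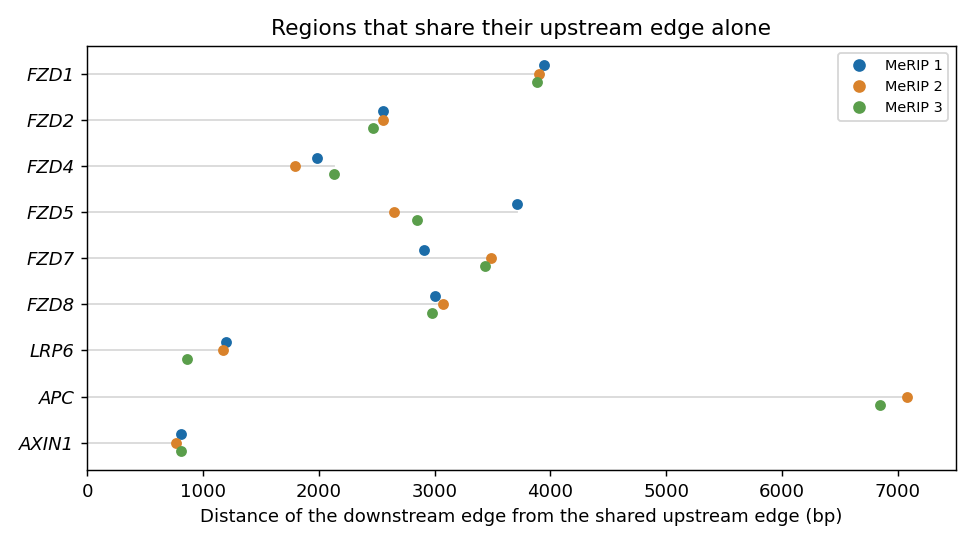
Distance in bp from the shared upstream edge to the downstream edge of the peak in MeRIP 1, 2 and 3, for the 9 regions in at least 2 lists that share the upstream edge alone. The edge moves by 39 bp in AXIN1 and by 1058 bp in FZD5, where the MeRIP 1 peak is the longest.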

How the data were processed

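MeRIP-seq peaks of 3 repeats in HEK293T cells, each an IP and an input library, were used. Per the labels' protocols, both libraries were depleted of rRNA and read as 150 bp pairs. HISAT2 2.0.4, cutadapt 1.9.3 and the build hg19 are named per the submitters' processing notes. Peak names carry the word MACS; the sources used here give neither its version and settings nor the rule by which peaks were listed. For each repeat the authors deposited 1 list with a score for each peak, which is a score of IP against input and not a count, so read depth is unknown and no counting interval is given.

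Start positions of the deposited lists, counted from 0, were changed to count from 1. Peaks were given to a gene by their centre and strand, joined into regions at 1 bp of overlap, and described by list. Python 3.11.15, NumPy 2.4.6, pandas 2.3.3 and Matplotlib 3.10.9 were used. The joining step was tested on simulated data. All 10 genes are named, and they were chosen with earlier results of these data known. Other genes of the pathway, and the exons and UTRs that peaks lie in, were not analysed here, since no hg19 annotation was used.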

Additional observations from a re-analysis of the deposited data

How the results depend on the processing

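No paired analysis was possible because a list gives 1 score per peak for IP and input together, with no separate value of each library. Of 50 values recomputed under alternatives, 43 stayed within 1.5 times the value given above, for counts, or within 1 SD, for levels, and 7 moved past that. With only those peaks kept that reach their own list's median score, and so fewer peaks, peaks per list numbered 16.3 against 22.3. Regions in all 3 lists then numbered 14 against 19, and genes with such a region stayed at 8. These counts were within the limit. Regions with identical edges in all 3 lists numbered 7 against 11, which was past it. The covered length per list was 22600 bp against 28800 bp, also past its limit. The median score in the 10 genes was 3100 against 1570, a rise fixed in advance because this filter removes low scores. The median of all peaks was not recomputed with the filter. With the highest score of each list in place of 3100 as the ceiling, no region of these genes reached it in all 3 lists, a count of 0 against 9. That outcome was fixed in advance, since no peak of these genes was above 3100. The median score of a gene's peaks was also taken in place of the highest, as a mean over the lists. It was 1450 against 2520 for FZD4, 328 against 3100 for LRP6 and 1060 against 3100 for AXIN1. On these means FZD4 passed both, but in MeRIP 1 its median was below that of AXIN1. Without 1 repeat, regions shared by both remaining lists numbered 20 to 21 against 19, and genes with such a region 8 to 9, the ninth being APC without MeRIP 1. The median score then ran from 1440 to 1750, identical edges from 12 to 13 regions and covered length from 27700 to 31000 bp. Any overlap with the window, strand ignored, and 50% reciprocal overlap changed none of the counts they were run on. Ties at the ceiling and the lowest score of 50 limit what the scores can rank.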
